A study of Rattus norvegicus with 45 samples.

Results

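Macrophages and their blood precursors enter skeletal muscle after injury, and 43 genes that mark these cells were followed here through a rat study of cerivastatin, a lipid-lowering drug that inhibits HMG-CoA reductase. The genes were listed by name and grouped by role, and each was read from the array probe sets whose annotated symbol is that gene alone. Of the 43, 38 had such a probe set and 37 passed the filter on low signal, against 14217 genes with a probe set and 11684 tested in the whole series. Spi1, Msr1, Siglec1, Vsig4 and Slc11a1 had no probe set of 1 symbol and are not analysed here. Itgam had one that fell below the filter. All 37 tested members also had a mean over the vehicle arrays above the filter, so none passed through the treated groups alone.

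Female SD rats received vehicle (methylcellulose) or cerivastatin over 14 days, at daily doses of 0.1, 0.5 or 1.0 mg/kg. The exercised groups had 5 treadmill sessions a week, of 20 min each with the belt at 20 m/min. Gastrocnemius, a mostly fast-fibre calf muscle, was sampled at every dose with and without exercise, and soleus, a slow-fibre muscle, at vehicle and 1.0 mg/kg. Each of the 12 groups held 3 or 4 arrays, which the submitters call biological replicates, and 45 arrays were analysed. Soleus arrays whose titles do not mention exercise were taken as unexercised, because their treatment notes name no treadmill. Each array measured RNA of a whole muscle piece, so more cells of a type and more RNA per cell cannot be told apart.

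Monocytes leave the blood, enter damaged muscle and become macrophages, which engulf dead fibre material and later take part in repair. They depend on the growth factor receptor CSF1R and on the transcription factor PU.1, the product of Spi1. They sense antibody-coated material through Fc receptors that signal by ITAM or ITIM motifs, take up debris through scavenger receptors, recognise microbial and tissue products through Toll-like receptors, and make superoxide with an NADPH oxidase.

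PU.1 binds DNA around the letters GAGGAA, and the promoters of the members were searched for them because the members moved together in the arrays. RefSeq promoter sequences (build GRCr8), which run from 250 bases before to 50 bases after each gene's start, were available for 27 of the 43 members. On either strand, GAGGAA was present in 19 of these 27 members (70.4%), against 29.2% of all 27457 genes with a promoter entry. The longer form GAGGAAGT, which contains GAGGAA, was present in 3 members (Arpc1b, Cd37 and Cd53; 11.1%) against 2.62% of all genes. TATAAA, the TATA box, was present in 2 members (7.41%) against 15.3%. TTGCGCAA, a C/EBP site, was present in 0 of 27 members against 55 of all genes (0.2%). It is too rare for 0 of 27 to show a lack of it. The median GC content was 48.3% in the members' 29 promoter windows and 51.7% in all 33469. A match describes these letters in these windows and does not show binding.

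The promoters of 5 members are shown, each 300 bases, 5′ to 3′ along the gene's own strand, with GAGGAA or its reverse complement TTCCTC in capitals. They belong to an oxidase subunit, a lysosomal marker, a Toll-like receptor and both haemoglobin and mannose scavenger receptors, and they show 4 promoters with the letters beside 1 without. Cybb lies at chrX:16065016-16065315 on the minus strand, Cd68 at chr10:54882392-54882691 on the minus strand, Mrc1 at chr17:82157475-82157774 on the plus strand, Tlr4 at chr5:85160997-85161296 on the plus strand and Cd163 at chr4:158770524-158770823 on the plus strand.
Cybb: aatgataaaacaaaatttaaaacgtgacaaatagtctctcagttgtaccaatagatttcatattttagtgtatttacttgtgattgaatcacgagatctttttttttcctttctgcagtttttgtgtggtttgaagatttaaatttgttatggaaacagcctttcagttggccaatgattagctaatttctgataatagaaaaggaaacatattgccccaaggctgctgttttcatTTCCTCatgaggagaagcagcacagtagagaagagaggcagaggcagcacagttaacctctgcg
Cd68: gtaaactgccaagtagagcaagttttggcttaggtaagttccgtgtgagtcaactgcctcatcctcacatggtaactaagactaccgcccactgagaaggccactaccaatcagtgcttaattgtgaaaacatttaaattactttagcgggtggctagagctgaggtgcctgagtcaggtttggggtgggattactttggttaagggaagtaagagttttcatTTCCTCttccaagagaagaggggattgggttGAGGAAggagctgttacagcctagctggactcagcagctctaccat
Mrc1: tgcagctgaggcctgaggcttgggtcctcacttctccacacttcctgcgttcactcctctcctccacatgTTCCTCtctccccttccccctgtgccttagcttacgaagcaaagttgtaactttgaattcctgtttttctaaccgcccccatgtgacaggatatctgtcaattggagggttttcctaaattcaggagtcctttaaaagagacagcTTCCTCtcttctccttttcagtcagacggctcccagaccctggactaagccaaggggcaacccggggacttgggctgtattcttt
Tlr4: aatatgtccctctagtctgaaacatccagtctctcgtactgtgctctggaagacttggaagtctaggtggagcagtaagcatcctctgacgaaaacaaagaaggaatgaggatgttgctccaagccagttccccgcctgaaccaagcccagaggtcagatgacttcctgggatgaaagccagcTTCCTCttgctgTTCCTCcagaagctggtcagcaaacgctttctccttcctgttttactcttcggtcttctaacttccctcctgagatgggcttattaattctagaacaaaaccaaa
Cd163: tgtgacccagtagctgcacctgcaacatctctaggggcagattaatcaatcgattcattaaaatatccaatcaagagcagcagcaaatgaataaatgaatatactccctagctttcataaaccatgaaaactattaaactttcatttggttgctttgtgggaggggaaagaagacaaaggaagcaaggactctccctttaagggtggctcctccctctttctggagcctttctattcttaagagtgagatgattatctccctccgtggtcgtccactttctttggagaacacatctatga

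Counting the start base as 1 and the base before it as -1, the match in Cybb began at -14. The matches in Cd68 began at -27 and 5, those in Mrc1 at -180 and -35, and those in Tlr4 at -67 and -55. The window of Cd163 held none, and no match says only that these letters are not in this window.

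At 1.0 mg/kg, all 37 tested members were higher than in vehicle in the exercised gastrocnemius. The background in that comparison was large: 23% of the 21729 tested probe sets were called higher, with limma and an adjusted p under 0.05. The median log2 difference of the members was 4.20, against -0.00617 over all tested probe sets, and the members ranged from 1.84 for Cd4 to 6.29 for Fcgr2b. In every one of the 37, each of the 4 treated arrays lay above each of the 4 vehicle arrays, which held for 22.2% of all probe sets in that direction. Without exercise, 28 of the 37 were called higher and 0 lower, with a median of 2.43, where 5.7% of all probe sets were called higher. Groups did not overlap for 8 of the 37 in the unexercised muscle, against 7.48% of all probe sets. All folds are given on the log2(signal + 12.4) scale, which understates the change of dim genes.

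**Figure D1:**
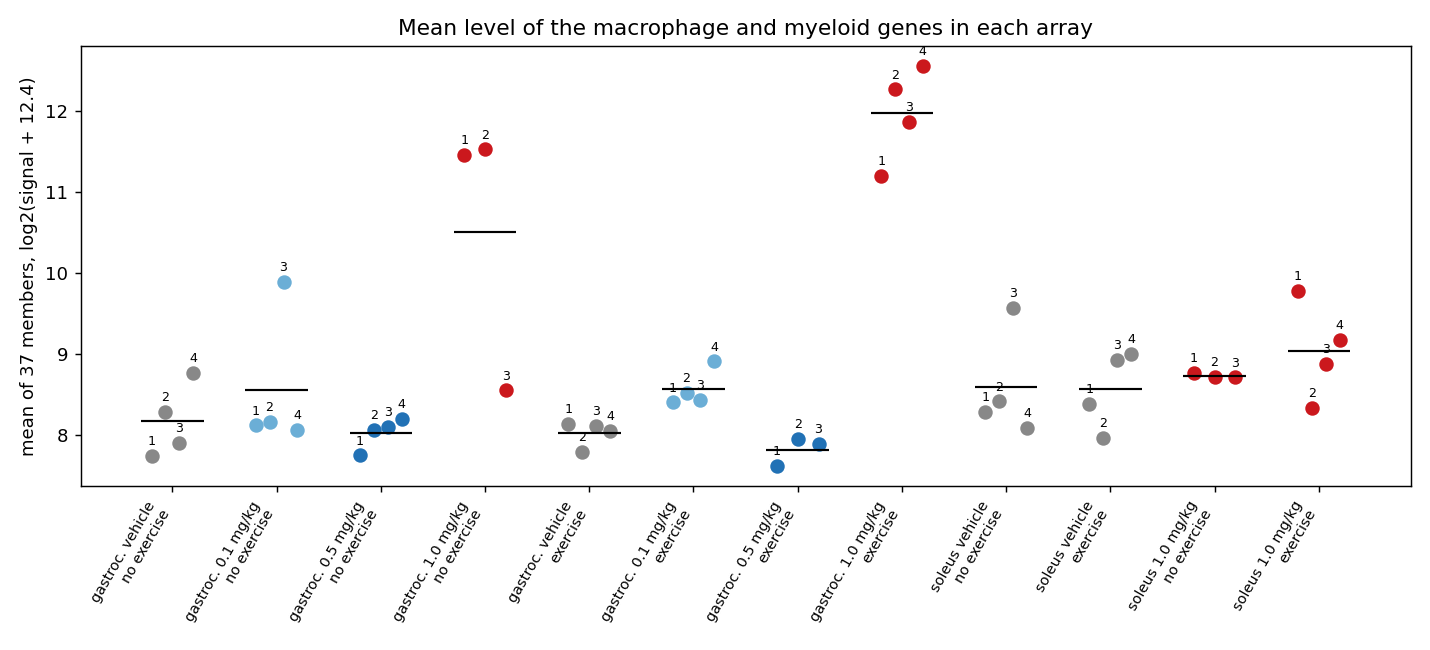
Mean level of the 37 tested members in each of the 45 arrays, as log2(signal + 12.4), by group; points are arrays labelled by replicate number, horizontal lines are group means, and colour marks the dose. The 4 exercised high-dose gastrocnemius arrays lie between 11.19 and 12.55, and replicate 3 of the unexercised high-dose group, at 8.547, lies apart from replicates 1 and 2 at 11.45 and 11.52.

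**Figure D2:**
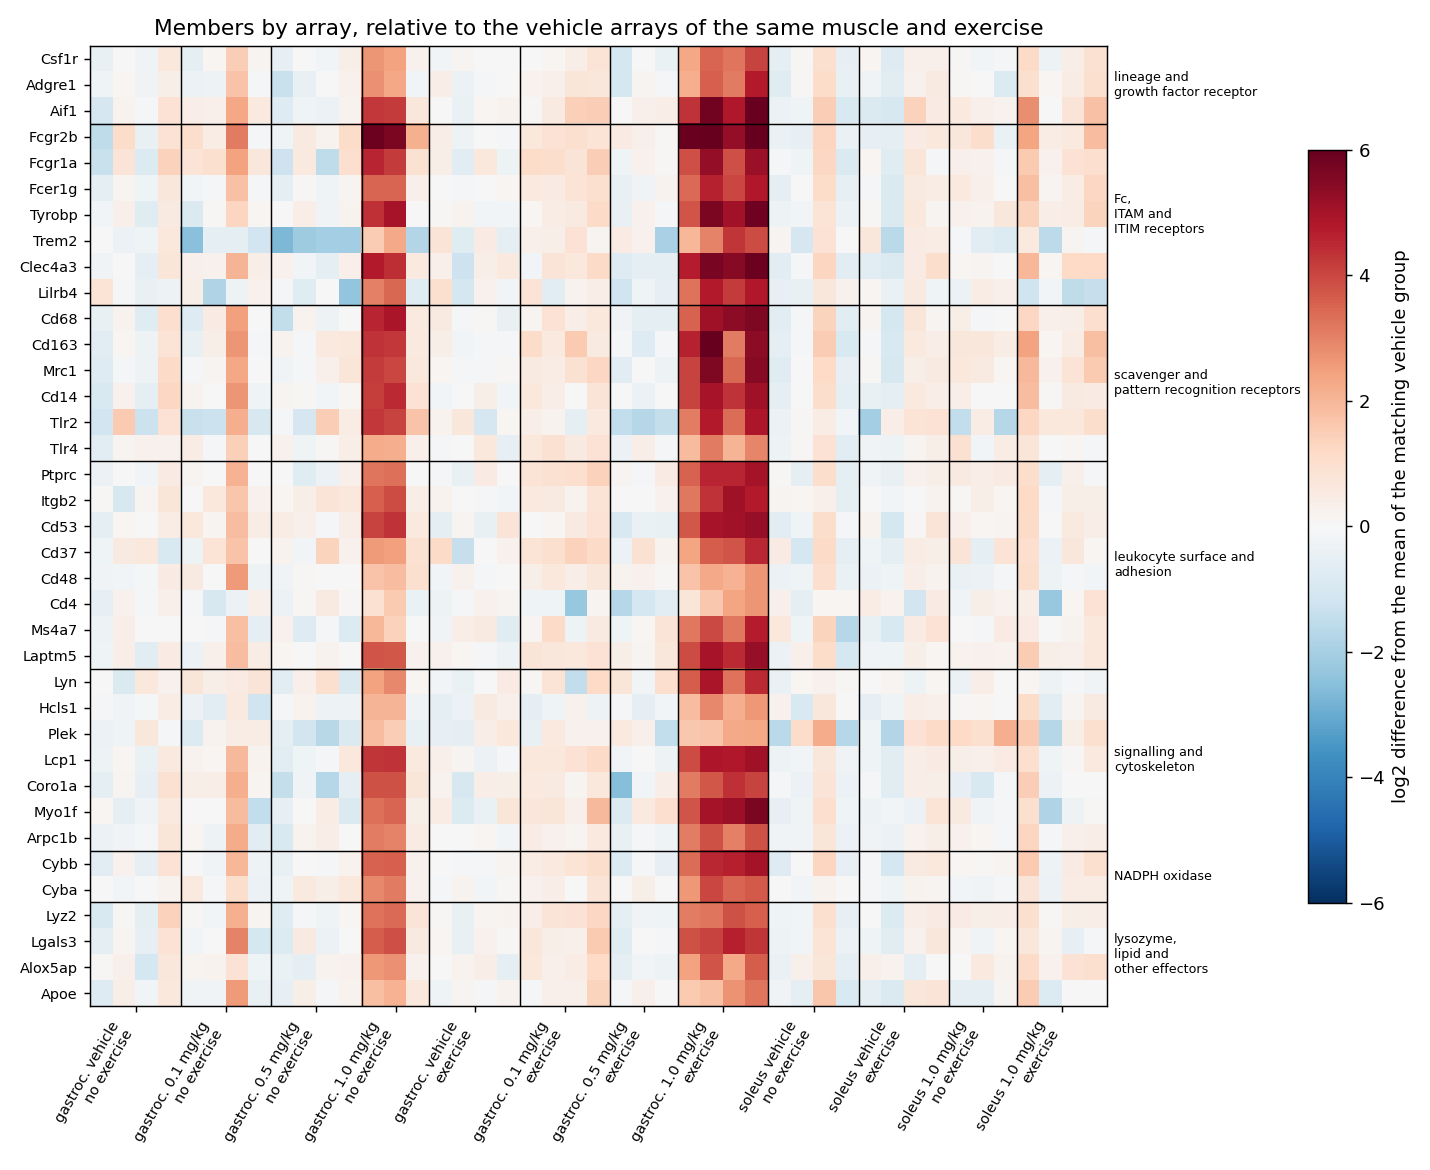
Every tested member (rows, grouped by role) in every array (columns, grouped by muscle, dose and exercise), as the log2 difference from the mean of the vehicle arrays of the same muscle and exercise, with colours ending at 6 and -6. The high-dose gastrocnemius columns are red in all 37 rows except in replicate 3 without exercise, and 1 column of the unexercised 0.1 mg/kg group is red in most rows.

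Among the lineage genes, Csf1r, the receptor for the growth factors CSF1 and IL-34, had signals of 606, 743, 677 and 663 in the exercised vehicle arrays and of 3398, 7627, 6360 and 11340 at 1.0 mg/kg. Every treated array lay far above every vehicle array. Csf1r rose by 3.27 ± 0.43 (log2, SE; 9.65-fold, adjusted p = 8.73e-06). Adgre1, the F4/80 surface antigen of mature macrophages, had signals of 217, 123, 154 and 158 in vehicle and of 760, 2051, 1466 and 4687 at the high dose, a difference of 3.41 ± 0.535 (adjusted p = 3.48e-05). Replicate 4 stood well above the other treated arrays for this gene, and no treated array overlapped vehicle. Aif1, which encodes the actin-binding protein Iba1, differed by 5.22 ± 0.57. That value comes from the brighter of its pair of probe sets. The dimmer one differed by -0.31 (adjusted p = 0.625), so the probe sets of Aif1 disagree.

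Fc receptors and the receptors and adaptors that carry ITAM or ITIM motifs showed a median log2 difference of 4.55 over 7 members with exercise and 3.09 without, and 7 and 5 of the 7 were called higher. Fcgr2b, the inhibitory IgG receptor, had signals of 117, 65.9, 84.6 and 76.5 in exercised vehicle muscle and of 5956, 12370, 3726 and 11850 at 1.0 mg/kg. It held the largest difference of any member in both gastrocnemius comparisons, 78.3-fold with exercise and 23.5-fold without. Fcgr1a, the high-affinity activating IgG receptor, was 170, 75.4, 203 and 103 in vehicle and 2046, 5409, 2076 and 5162 at the high dose, a 23.5-fold difference.

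The adaptors Fcer1g and Tyrobp, which bring ITAM motifs to Fc receptors and to TREM2 and its relatives, moved with them. Fcer1g had signals of 858, 833, 894 and 942 in exercised vehicle muscle and of 9497, 21580, 14310 and 24690 at 1.0 mg/kg (log2 difference 4.20 ± 0.49, adjusted p = 5.05e-06). Tyrobp had signals of 252, 280, 210 and 211 in vehicle and of 3351, 12470, 8131 and 14110 at the high dose (5.07 ± 0.65, adjusted p = 7.21e-06). For both genes the vehicle arrays were close together, and replicate 1 was the lowest of the treated arrays. Clec4a3, a C-type lectin receptor, rose by 5.43 ± 0.60 and Lilrb4, an inhibitory receptor with ITIM motifs, by 4.24 ± 0.68.

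Trem2, a lipid-sensing receptor that signals through Tyrobp, had signals of 133.5, 38.7, 108 and 43.8 in exercised vehicle muscle and of 318, 647, 1634 and 1269 at 1.0 mg/kg (3.29 ± 0.66, adjusted p = 0.000314). Its treated arrays were all above its vehicle arrays, with the highest value in replicate 3. Without exercise it had the smallest difference of the 37, at 0.68 ± 0.71 (adjusted p = 0.572). There the arrays read 412, 688 and 31.1 at 1.0 mg/kg and 132, 101.5, 111.5 and 214 in vehicle, so replicate 3 was below every vehicle array.

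Scavenger and pattern recognition receptors had the largest median of the role groups in the exercised muscle, 4.62 over 6 tested members of 9 listed, and all 6 were called higher with and without exercise. Cd163, which takes up haemoglobin bound to haptoglobin, had signals of 331, 232, 242.5 and 239 in exercised vehicle muscle and of 6740, 17410, 2311 and 11260 at 1.0 mg/kg (4.78 ± 0.66, 27.5-fold, adjusted p = 1.18e-05). Mrc1, the mannose receptor, had 458, 405, 399.5 and 442 in vehicle and 7338, 20940, 4822 and 19240 at the high dose (4.64 ± 0.60, 25.0-fold, adjusted p = 7.56e-06). For both, replicate 3 was the lowest treated array and replicate 2 the highest.

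Cd68, a glycoprotein of macrophage lysosomes, behaved otherwise in those arrays. Its signals were 309, 190, 217 and 148 in exercised vehicle muscle and 2560, 7461, 8995 and 10720 at 1.0 mg/kg (4.89 ± 0.685, 29.7-fold, adjusted p = 1.38e-05), with replicate 1 the lowest. Cd14, the co-receptor that hands lipopolysaccharide to TLR4, had signals of 257.5, 293, 371 and 260 in vehicle and of 5073, 9445, 6076 and 10200 at the high dose (4.60 ± 0.58, adjusted p = 6.57e-06), with no overlap. Tlr2, a receptor for bacterial lipoproteins, rose by 4.00 ± 0.73. Tlr4 itself showed the smallest difference of the 6, with signals of 120, 130, 210 and 90.5 in vehicle and of 529, 1240, 589 and 1080 at the high dose (2.50 ± 0.38, adjusted p = 2.79e-05).

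**Figure D3:**
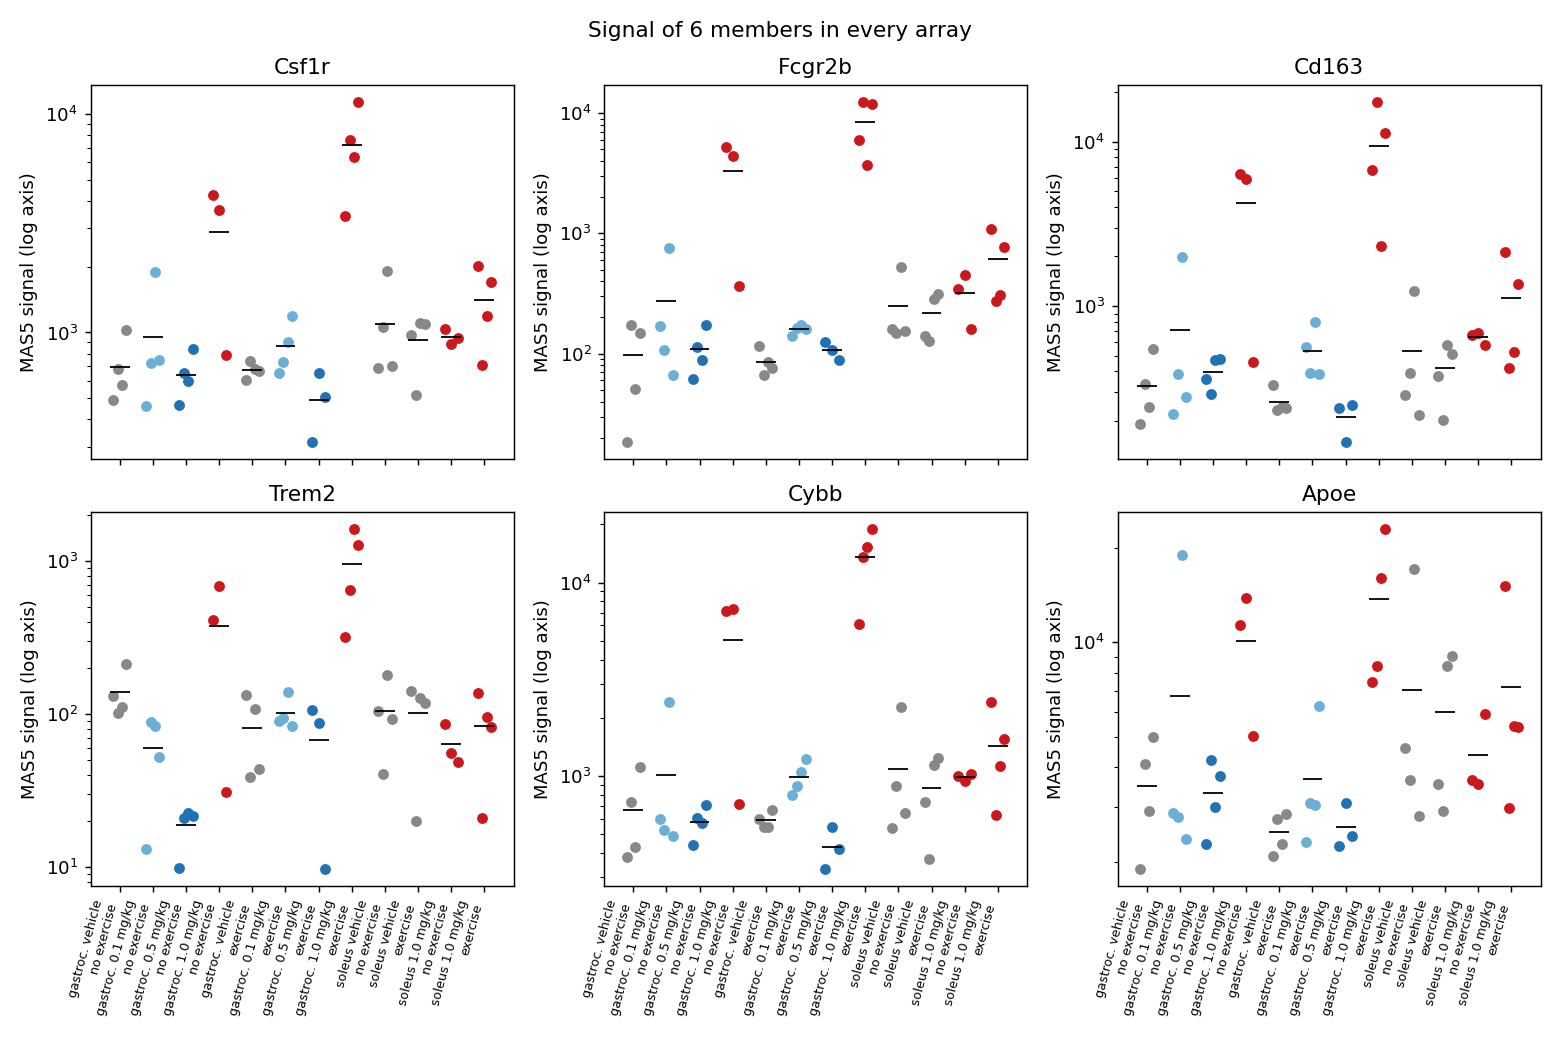
Signal (log axis) of Csf1r, Fcgr2b, Cd163, Trem2, Cybb and Apoe in every array, by group; points are arrays, lines are group means of the signal, and colour marks the dose as in the plot of array means. In each panel the red exercised gastrocnemius points lie above the grey vehicle points of the same muscle, while the soleus points at 1.0 mg/kg overlap those of vehicle.

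Of the leukocyte surface and adhesion genes, 8 of 9 were tested, with a median of 4.04 with exercise and 2.07 without, and 8 and 6 of them were called higher. Ptprc, the CD45 phosphatase of all white blood cells, had signals of 107, 78.1, 165 and 111 in exercised vehicle muscle and of 1415, 2923, 2941 and 3905 at 1.0 mg/kg (4.41 ± 0.52, adjusted p = 5.05e-06). A second probe set of Ptprc differed by 4.57. Itgb2, the shared chain of the leukocyte integrins, rose by 4.33 ± 0.51, and the tetraspanin genes Cd53 and Cd37 by 4.74 ± 0.53 and 3.57 ± 0.53. Cd4, a T cell co-receptor that rat macrophages also carry, had the smallest difference of the 37 (1.84 ± 0.46), and Cd48, an adhesion molecule of the SLAM family, differed by 2.17 ± 0.36.

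Itgam encodes the partner chain of Itgb2 in the integrin Mac-1. It was left out of the tests because its mean over all arrays was below the filter. Its signals were 21.6, 38.6, 39.9 and 12.0 in exercised vehicle muscle and 462, 1124, 1101 and 1665 at 1.0 mg/kg. Without exercise the high-dose arrays read 497, 1229 and 14.2, against 18.5 to 42.2 in vehicle. With no filter, over 31042 probe sets, Itgam differed by 4.70 ± 0.69 with exercise (adjusted p = 2.16e-05) and by 2.81 ± 0.75 without (adjusted p = 0.031).

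Genes of signalling and the cytoskeleton had a median of 3.82 over 7 members with exercise and 2.18 without, with 7 and 4 called higher. Lyn, a Src-family kinase that phosphorylates ITAM and ITIM motifs, had signals of 54.6, 44.1, 63.4 and 93.5 in exercised vehicle muscle and of 915, 2236, 702.5 and 1667 at 1.0 mg/kg (4.08 ± 0.55, adjusted p = 1.06e-05). Its second probe set differed by 2.50, a smaller difference in the same direction. Myo1f, a leukocyte myosin, rose by 4.89 ± 0.64. Lcp1, the actin bundler L-plastin, rose by 4.66 ± 0.53. Plek, a protein kinase C substrate first described in platelets, had the second smallest difference of all members, at 1.99 ± 0.45, and Hcls1, a cortactin-related adaptor, rose by 2.39 ± 0.39.

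Both membrane subunits of the phagocyte NADPH oxidase were called higher with and without exercise. Cybb, the catalytic subunit, had signals of 596, 543, 545 and 669 in exercised vehicle muscle and of 6140, 13610, 15250 and 18990 at 1.0 mg/kg (4.38 ± 0.53, 20.9-fold, adjusted p = 6.06e-06), and its second probe set differed by 4.82. Cyba, the smaller chain that stabilises it, had 352, 438, 335.5 and 402 in vehicle and 2366, 6275, 4428 and 5040 at the high dose (3.45 ± 0.41, 10.9-fold, adjusted p = 5.42e-06). Replicate 1 was the lowest treated array for each.

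Effector genes had the smallest role median in the exercised muscle, 3.22 over 4 tested members of 5. Lyz2, which encodes the lysozyme of macrophages and granulocytes, had signals of 3069, 2150, 3311 and 3404 in exercised vehicle muscle and of 24460, 27460, 41500 and 35920 at 1.0 mg/kg (3.42 ± 0.49, adjusted p = 1.51e-05). Apoe, a lipid carrier that macrophages share with liver, fat and nerve, had 2094, 2750, 2284 and 2849 in vehicle and 7456, 8416, 15960 and 22980 at the high dose (2.31 ± 0.48, adjusted p = 0.000465). Lgals3, a galactoside-binding lectin of phagocytes, rose by 4.21 ± 0.63 and Alox5ap, which presents arachidonic acid to the leukotriene-forming lipoxygenase, by 3.02 ± 0.44.

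**Figure D4:**
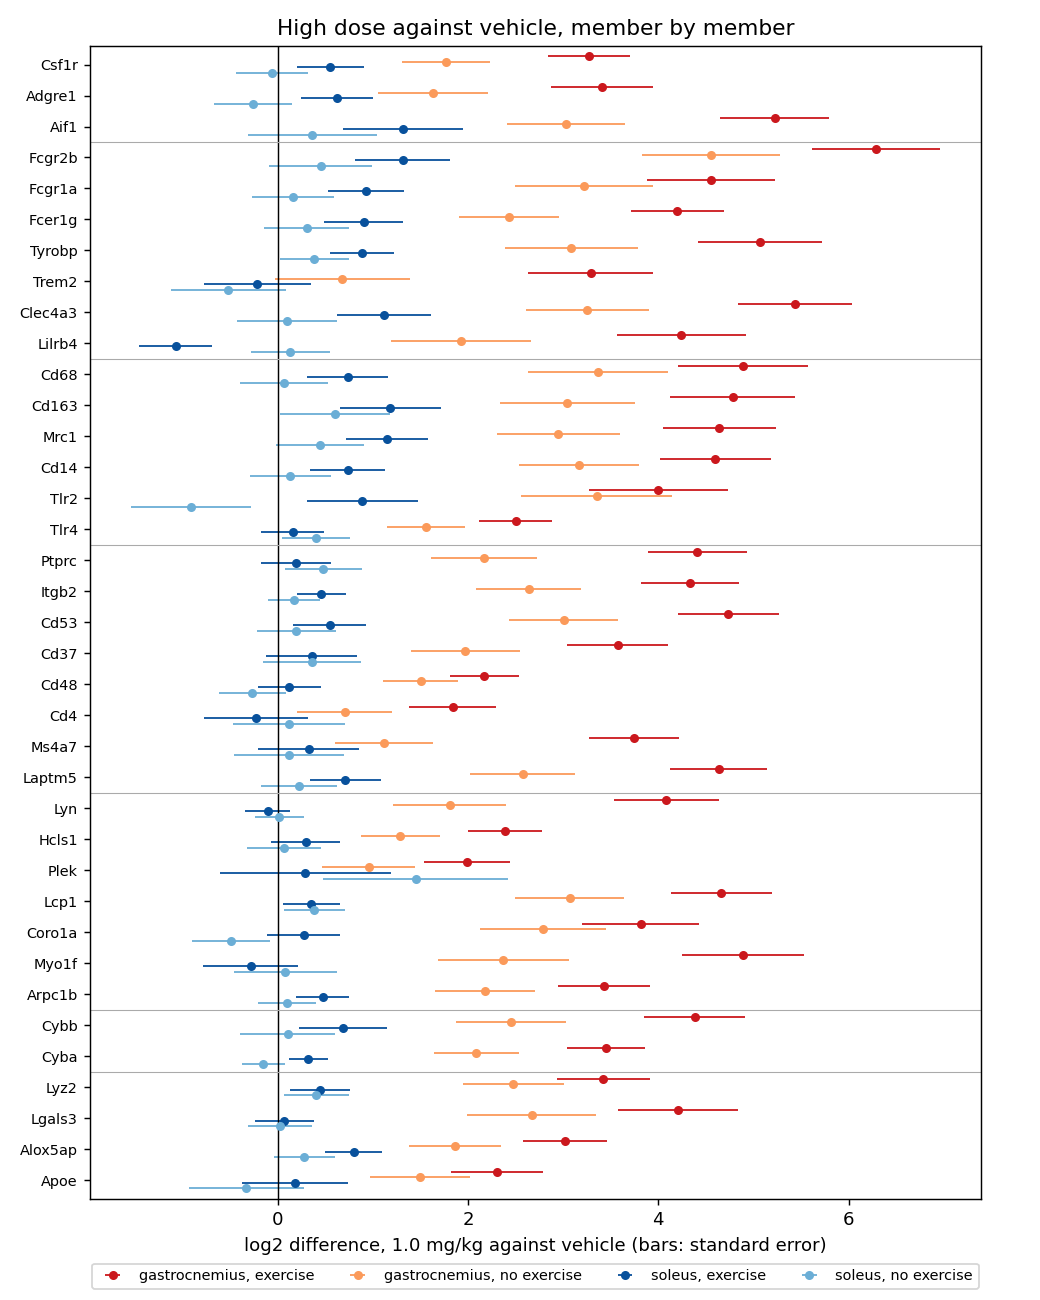
Log2 difference of each tested member between 1.0 mg/kg and vehicle in gastrocnemius and soleus, with and without exercise; points are estimates, bars are standard errors, and grey lines separate the roles. The exercised gastrocnemius points run from 1.84 to 6.29, and the soleus points from -1.07 to 1.45.

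The 4 exercised high-dose arrays did not differ by a common factor. Replicate 1 was the lowest for 30 of the 37 members and replicate 4 the highest for 23, and the median shift from the vehicle mean was 3.24, 4.51, 3.89 and 4.77 in replicates 1 to 4. Replicate 3 departed from that order in opposite directions. It was the lowest array for 7 members, namely Cd163, Mrc1, Fcgr2b, Ms4a7, Lyn, Arpc1b and Alox5ap, and the highest for 5, namely Trem2, Itgb2, Coro1a, Lyz2 and Lgals3. The shift of Cd163 was 3.10 in replicate 3 against 6.01 in replicate 2, and that of Mrc1 was 3.46 against 5.58. The shift of Trem2 was 4.29 in replicate 3 against 2.97 in replicate 2. These members were picked out after their values were seen, and no test was made of the pattern. The 2 tested neutrophil genes, S100a8 and S100a9, which monocytes also express, had their lowest median shift in replicate 3. Their median shifts were 5.06, 6.67, 2.87 and 4.61 in replicates 1 to 4. The 3 tested osteoclast or microglia-shared genes had their highest there, with 1.06, 1.45, 3.71 and 2.2. The slow-fibre genes shifted by 3.10, -3.78, 2.45 and -1.65. For these genes the exercised vehicle arrays themselves ran from -3.6 to 4.05 around their mean. The part of the neutrophil, osteoclast or slow-fibre genes was not tested.

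**Figure D5:**
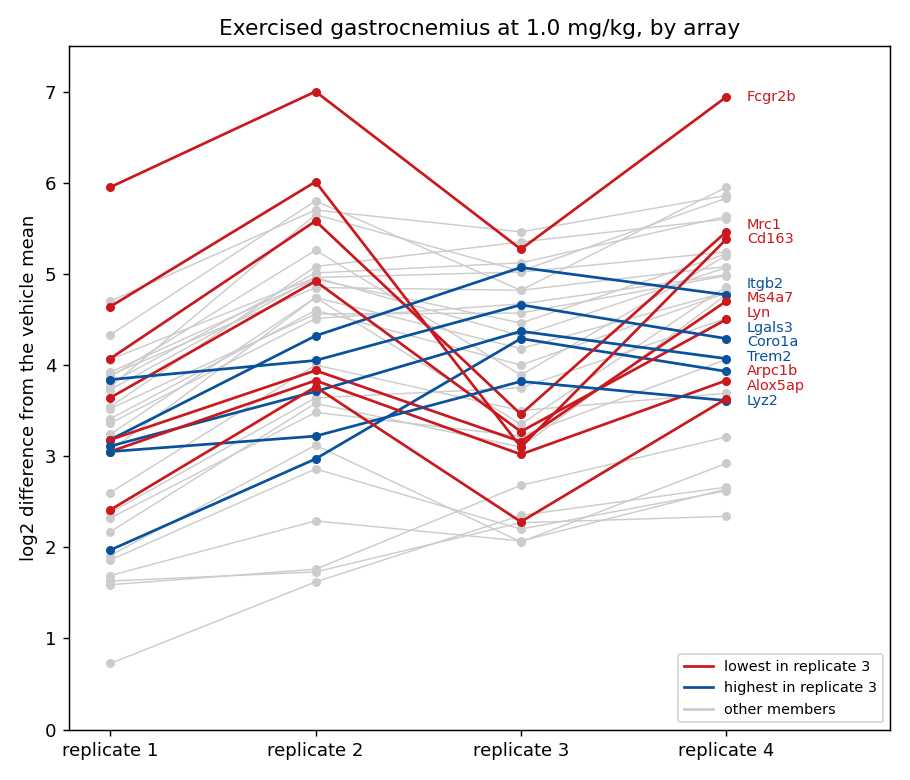
Log2 difference from the vehicle mean of each tested member in the 4 exercised gastrocnemius arrays at 1.0 mg/kg; lines only join the values of 1 gene, since replicates have no order. Genes in red are lowest in replicate 3, as Cd163 at 3.10, and genes in blue are highest there, as Trem2 at 4.29.

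Without exercise, the high-dose result rested on replicates 1 and 2. The median shift of the members from the vehicle mean was 3.28 and 3.48 in those arrays and 0.398 in replicate 3, which was the lowest of the 3 arrays for all 37 members. In replicate 3, 8 members were above every vehicle array (Fcgr2b, Tlr2, Cd53, Cyba, Cd37, Tlr4, Cd48 and Apoe). Fcgr2b read 5183, 4428 and 365 at the high dose against 18.3, 174, 51.0 and 149 in vehicle. Cd163 read 6326, 5961 and 457 against 191, 336, 242 and 545, so its replicate 3 lay within the vehicle range. Tyrobp read 5166, 7685 and 234 against 213, 301, 141.5 and 358.5, with the same pattern.

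Leaving out either high array ended every call among the members in unexercised muscle. With limma, 0 of 37 were called without replicate 1 and 0 without replicate 2, and of all 21729 probe sets 5 (0.023%) and 2 (0.0092%) were called. At an unadjusted p under 0.05 there were 30 and 28 members, and 3401 and 2857 probe sets, against 34 members and 27.9% of probe sets with all arrays. The median differences were 1.91 and 1.89. Without replicate 3, 36 of 37 were called, all except Cd4, with a median of 3.38, and 26.8% of all probe sets were then called in either direction. Fitted on the compared arrays alone, limma called 0 members and 0 of all probe sets, and 33 members and 5299 probe sets had an unadjusted p under 0.05. The 9 members not called with all arrays were Trem2, Cd4, Plek, Ms4a7, Hcls1, Apoe, Adgre1, Lyn and Lilrb4. Each had a positive difference, from 0.68 for Trem2 to 1.93 ± 0.74 for Lilrb4 (adjusted p = 0.0875). Lyn missed the threshold with the probe set used (adjusted p = 0.0529), whereas its second probe set passed (2.41, adjusted p = 0.0141). The second probe sets of Ptprc and Aif1, members counted as called, did not pass (1.83 and 0.17, adjusted p = 0.157 and 0.862). In replicate 3 the fast-fibre genes had a median shift of -0.214 from vehicle, against -0.948 and -1.26 in replicates 1 and 2. The neutrophil genes S100a8 and S100a9 had one of 0.353, against 5.16 and 5.70. The part of fibres or of these genes in the members' values was not tested.

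The difference of the high-dose effect between exercised and unexercised gastrocnemius was positive for all 37 members, with a median of 1.60, and passed an adjusted p under 0.05 for 0 of them, as for 0% of all probe sets. At an unadjusted p under 0.05, 17 of the 37 members passed, against 6.33% of all probe sets. The largest differences were 2.62 ± 0.70 for Ms4a7, a membrane protein of tissue macrophages, 2.61 ± 0.97 for Trem2 and 2.52 ± 0.94 for Myo1f (adjusted p = 0.705 for each). Without replicate 3 of the unexercised high-dose group, the median difference was 0.51 and 1 member had an unadjusted p under 0.05, as had 652 of the 21729 probe sets. Exercise alone moved no member past the threshold in vehicle gastrocnemius, where 0 were called, 0 had an unadjusted p under 0.05 (3.33% of all probe sets) and the median difference was -0.0952. In vehicle soleus the counts were likewise 0 and 0 (2.97%), with a median of -0.0472.

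Below the high dose, no member was called at 0.5 or 0.1 mg/kg with limma, with or without exercise, as for 0% of all probe sets in those 4 comparisons. At an unadjusted p under 0.05 there were 1 and 2 members at 0.5 mg/kg with and without exercise, against 2.88% and 2.73% of all probe sets, and 0 and 0 at 0.1 mg/kg, against 4.4% and 4.07%. At 0.5 mg/kg the medians were -0.19 with exercise and -0.0776 without. Tlr2 (-1.54) and Cd4 (-1.15) in exercised muscle and Trem2 (-2.25) and Plek (-1.06) in unexercised muscle had all their 0.5 mg/kg arrays below all vehicle arrays, which held for 2.78% and 1.14% of all probe sets. Trem2 read 9.90, 21.1, 22.7 and 21.6 at 0.5 mg/kg without exercise against 101.5 to 214 in vehicle. These 0.5 mg/kg signals lie near 12.4, the 10th percentile of all values, which limits what their distance from vehicle can show. A second probe set of Trem2 fell below the filter. At 0.1 mg/kg without exercise Trem2 read 13.1, 88.9, 84.2 and 52.8, again below every vehicle array (-1.21, adjusted p = 0.89). It was the 1 member without overlap there, where 0.704% of all probe sets were lower in that way.

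Compared with 0.5 mg/kg in place of vehicle, the 1.0 mg/kg arrays were higher for 37 of 37 members with exercise (21.5% of all probe sets higher) and for 33 of 37 without (5.71%), with medians of 4.24 and 2.58. The medians against vehicle were 4.20 and 2.43, and both kinds of comparison share the 1.0 mg/kg arrays. In the unexercised muscle Cd37, Cd4, Ms4a7 and Apoe were not called. That count also fell to 0 without replicate 1 or replicate 2 of the high-dose group, where limma called 0 and 1 of all probe sets. At an unadjusted p under 0.05 there were 34 and 34 members, and 3410 and 2942 probe sets, against 36 members and 28.2% of probe sets with all arrays.

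At 0.1 mg/kg with exercise, 35 of the 37 members were above the vehicle mean, with a median of 0.545 against 0.0144 over all probe sets, although none was called. Groups did not overlap for 13 members, all of them higher, where 2.64% of all probe sets did so: Fcgr2b, Fcgr1a, Fcer1g, Cd163, Mrc1, Ptprc, Cd48, Laptm5, Lcp1, Arpc1b, Cybb, Lyz2 and Lgals3. Ptprc read 206, 218.5, 240 and 313 against 107, 78.1, 165 and 111 in vehicle, and Cybb 799, 892, 1050 and 1229 against 543 to 669. The arrays did not overlap, and the differences were 1.03 ± 0.52 and 0.73 ± 0.53 (adjusted p = 1 for each). In the same arrays the actin 5′ to 3′ signal ratio, a measure of RNA integrity, was 0.248 to 0.334, against 0.35 to 0.469 in the vehicle arrays, and its part was not tested.

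At 0.1 mg/kg without exercise the median was 0.451, and 1 array carried it. Replicate 3 had a median shift of 1.91 and lay above all vehicle arrays for 32 of the 37 members, whereas replicates 1, 2 and 4 had shifts of -0.0208, 0.0143 and -0.00701. Without replicate 3 the median difference was -0.0291. Mrc1 read 2454 in that array, Lyz2 13060 and Apoe 19020, above the vehicle maxima of 1058, 7942 and 5001. Cd48 read 6690 there, the highest value of Cd48 in the series and the only member whose highest array was outside the exercised high-dose gastrocnemius. That array had the lowest actin and GAPDH 5′ to 3′ ratios of the 45, 0.116 and 0.475. Its fast-fibre and slow-fibre genes had median shifts of -1.39 and -1.45 from vehicle. The slow-fibre shifts of replicates 1, 2 and 4 were 1.11, -1.61 and -7.72, so a slow-fibre fall was not particular to replicate 3. Genes of other cells were high in replicate 3 too, with median shifts of 2.4 for endothelium, 1.84 for fibroblasts and 1.75 for mast cells, beside 1.91 for the members. The neutrophil genes S100a8 and S100a9 had a median shift of 1.67 there and of 1.86 in replicate 4. The part of RNA integrity, fibres or other cells in its macrophage genes was not tested.

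In soleus at 1.0 mg/kg, no member was called with limma, with or without exercise, as for 0% of all probe sets. With exercise, 32 of 37 differences were positive, with a median of 0.462, and 9 members had an unadjusted p under 0.05, against 5.32% of all probe sets. Csf1r read 2006, 710, 1186 and 1702 at 1.0 mg/kg against 970, 519, 1101 and 1098 in vehicle, and Fcgr2b 1083, 275, 305 and 768 against 140, 128, 283 and 314. The largest differences were 1.32 ± 0.63 for Aif1, 1.31 ± 0.50 for Fcgr2b and 1.19 ± 0.53 for Cd163. Lilrb4 and Trem2 lay below vehicle, at -1.07 ± 0.385 (adjusted p = 0.908) and -0.21 ± 0.56 (adjusted p = 0.974). Without exercise the median was 0.133 and 0 members had an unadjusted p under 0.05, against 2.73% of all probe sets.

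The exercised soleus values leaned most on replicate 1, with a median shift of 1.17 and 31 members above every vehicle array. Replicate 4 had a shift of 0.579 and 21 such members. Replicates 2 and 3 had shifts of -0.0295 and 0.364, with 1 and 8 such members. The actin ratio of replicate 1 was 0.245, the lowest in its group, and that of replicate 4 was 0.4. In replicate 1 the mast cell and endothelial genes had median shifts of 1.32 and 0.939. The neutrophil genes S100a8 and S100a9 had one of 2.17, against 1.9, 1.64 and 0.627 in replicates 2 to 4. The fast-fibre and slow-fibre genes of replicate 1 shifted by -1.24 and -0.772. The part of these cells and fibres was not tested. Without that array the median was 0.275 and 1 member had an unadjusted p under 0.05, as had 1201 of the 21729 probe sets.

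Soleus and gastrocnemius differed in their response at 1.0 mg/kg with exercise for 36 of 37 members, all with the larger rise in gastrocnemius, where 13.7% of all probe sets were called in that direction. The median of this difference of differences was 3.54. It was largest for Lilrb4 (5.31 ± 0.86, adjusted p = 0.000204), Myo1f (5.17 ± 0.87) and Fcgr2b (4.98 ± 0.91), and smallest for Cd4 (2.07 ± 0.72), Cd48 (2.05 ± 0.52) and Plek (1.70 ± 0.96, adjusted p = 0.196), the member not called. Without exercise 0 members were called (0.0092% of all probe sets) and 31 of 37 had an unadjusted p under 0.05, against 18.1% of all probe sets, with a median of 2.24. Without replicate 3 of the unexercised high-dose gastrocnemius, 31 were called, with 16.4% of all probe sets called in either direction. About 4 µg of RNA was labelled for gastrocnemius and 3 µg for soleus, so muscle and RNA input cannot be told apart.

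At baseline most members were somewhat higher in soleus, few of them past the threshold. The median difference was 0.563 with exercise and 0.509 without, against 0.0521 and 0.0635 over all probe sets. The median without exercise leaned on unexercised soleus replicate 3. Without that array it was 0.176, and 25 of 37 differences were positive. The array had a member mean of 9.57, against 8.09 to 8.413 in the rest of its group. Its actin 5′ to 3′ ratio was 0.255, the lowest of that group. In exercised vehicle soleus, member means were 8.919 and 9.002 in replicates 3 and 4, with actin ratios of 0.301 and 0.328. Replicates 1 and 2 there had 8.378 and 7.964, with ratios of 0.497 and 0.707. The part of RNA integrity was not tested, with or without exercise. With exercise, every soleus array lay above every gastrocnemius array for 9 members and below for 0, where 11.4% of all probe sets lay above. Without exercise the counts were 3 above and 1 below, against 7.75% and 8.92%. In exercised vehicle rats 2 of 37 members were higher in soleus, where 6.33% of all probe sets were called higher: Lgals3, at 6823, 5078, 9739 and 12830 in soleus against 1564, 1076, 1711 and 1526 in gastrocnemius (2.48 ± 0.56, adjusted p = 0.00264), and Cd48 (1.25 ± 0.365, adjusted p = 0.0191). In unexercised vehicle rats Lgals3 was higher in soleus (1.93 ± 0.56; 3.26% of probe sets called higher) and Plek lower (-2.59 ± 0.68; 3.76% called lower). Lgals3 was the 1 member with a call in both pairs of groups. These counts were small and moved with single arrays: from 2 to 1 with exercise without gastrocnemius replicate 1 or soleus replicate 3 or 4, and without exercise from 2 to 0 without gastrocnemius replicate 3 or soleus replicate 1, and to 1 without gastrocnemius replicate 1 or 2 or soleus replicate 3 or 4.

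The muscle labels were checked on fibre genes. Of 7 tested fast-fibre genes 6 were lower in soleus than in gastrocnemius with exercise and 5 without, and of 7 slow-fibre genes 6 and 0 were higher. Slow-fibre summed signals in single vehicle gastrocnemius arrays ran from 3282 to 375700, so pieces of gastrocnemius differed in slow-fibre content. Fast-fibre summed signals ran from 67650 to 270000 in vehicle soleus arrays, against 433900 to 545400 in vehicle gastrocnemius. Pieces of soleus thus differed in fast-fibre content, and this limits the check and the comparisons between muscles. The highest correlation between any pair of arrays was 0.97, and no arrays held identical values.

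Partner genes of the members were read from 5 further lists. Their counts at 1.0 mg/kg stand beside 23% of all probe sets called higher and 20.4% lower with exercise. Without exercise 5.7% of all probe sets were called higher, and 9.5% in either direction. Behind the ITAM and ITIM receptors, 13 of 15 tested kinases, phosphatases and adaptors were higher at 1.0 mg/kg with exercise and 1 was lower, with a median of 2.98. Blnk (5.18 ± 0.71) and Fyb1 (5.10 ± 0.73), both adaptor proteins, and Ptpn6 (4.33 ± 0.55), the phosphatase SHP-1 that ITIM motifs recruit, led the list together with the adaptor Lcp2 (4.22 ± 0.61). Ptpn11, the widely expressed relative of Ptpn6, was lower with exercise (-1.30 ± 0.24, adjusted p = 0.000123) and without (-0.99 ± 0.255, adjusted p = 0.0221). Without exercise 6 were higher and 1 lower.

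Of the other oxidase subunits 4 of 5 tested were higher with exercise and 2 without. Rac2, the leukocyte GTPase of the oxidase, differed by 3.07 ± 0.45 and Ncf4, a cytosolic subunit, by 2.91 ± 0.57, and Rac1, which all cells use, by 0.42 ± 0.15. Ncf1, another cytosolic subunit, was not called (1.52 ± 0.67, adjusted p = 0.0659).

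Among the colony stimulating factors and receptors 3 of 5 tested were higher with exercise and 0 without. These were the receptor chains Csf2ra (3.58 ± 0.51), Csf3r (2.50 ± 0.56) and Csf2rb (1.89 ± 0.57). The ligands of CSF1R did not pass the test: Csf1 had mean signals of 1280 at 1.0 mg/kg and 1493 in vehicle (-0.21 ± 0.17, adjusted p = 0.332), and Il34 402.5 and 305.6 (0.36 ± 0.30, adjusted p = 0.344).

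Of the Toll-like receptor partners 10 of 12 tested were higher with exercise and 3 without, led by the lipopolysaccharide-binding protein Lbp (5.30 ± 0.965), the receptor Tlr7 (4.18 ± 0.58), Irak3 (3.40 ± 0.67), which restrains the pathway, and Cd180 (3.40 ± 0.61). Of the myeloid transcription factors 8 of 11 tested were higher with exercise and 4 without. Irf5 (4.32 ± 0.72), Tfec (4.20 ± 0.72) and Irf8 (3.52 ± 0.52) led them. Cebpb, which many cell types express, read 6736 at the high dose and 5877 in vehicle on average (0.17 ± 0.34, adjusted p = 0.712).

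Markers of other cells were read beside the members in the exercised high-dose gastrocnemius. Of 10 neutrophil genes 2 were tested, S100a8 and S100a9, which monocytes also express, and both were higher (4.27 ± 0.97 and 5.34 ± 0.89). Summed over the 6 neutrophil genes with a probe set, signals ran from 200.1 to 337.1 in vehicle and from 1501 to 11180 at 1.0 mg/kg. The other 4 were below the filter, and their highest signals in the 45 arrays were 82.4 for Camp, 102.2 for Cxcr2, 155 for Mmp8 and 627.8 for Mmp9, against medians of 10.2, 18.4, 45.1 and 19.1. These counts stand beside 23% of all probe sets called higher and 20.4% called lower. Of 6 tested T cell genes 2 were higher, Cd8a and Lck, and the defining gene Cd3g was not (0.77 ± 0.51). Summed over all 10 T cell genes, signals ran from 918.1 to 1192 in vehicle and from 1714 to 2052 at 1.0 mg/kg. Sums of 4 dendritic cell genes did not overlap either, at 448 to 650.5 in vehicle and 1514 to 5740. B cell sums were lower at 1.0 mg/kg, 382.2 to 389.1 against 436.5 to 641.4. Natural killer cell sums overlapped, 204.3 to 699.1 against 217.6 to 287.6. The B cell gene Cd22 was not called (-0.43 ± 0.235), and no natural killer cell gene passed the filter. Of 7 mast cell genes 3 were higher, of 6 fibroblast genes 4, of 6 endothelial genes 2, of 2 dendritic cell genes 1 and of 3 osteoclast or microglia-shared genes 2 were higher and 1 lower. Fast-fibre genes fell, 6 of 7, with a median of -1.67. The part of these cells and fibres in the members' values was not tested.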

How the data were processed

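Per the labels, total RNA was isolated with RNeasy columns and hybridised to Affymetrix rat arrays, and per the submitters' processing notes the authors deposited MAS5 signal intensities, 1 value per probe set and array. The platform annotation gave 1 symbol to 20826 probe sets, several to 436 and none to 9780. The members and gene lists were chosen with earlier results of these data known. The deposited intensities had trimmed means of 600.20 to 600.31, so no further scaling was applied. They were taken as log2(signal + 12.4), 57 control probe sets were dropped, and 21729 of 31042 probe sets with a mean of at least 6.03 were tested with limma 3.58.1 (R 4.3.3; group means, eBayes with trend), on 30 gastrocnemius arrays, 15 soleus arrays or, between muscles, all 45. P-values were adjusted by Benjamini-Hochberg within each of 17 comparisons, with 0.05 as threshold. A gene was read from its tested probe set of highest mean. The number of arrays limits the precision. The fits were tested on simulated data. Members with the value in every array were chosen by role. In each comparison with calls, the 3 largest and 3 smallest differences were named too, and partner and marker genes were named after their values were seen. Replicate numbers were not taken as pairing: correlations of same-numbered arrays ran from -0.293 to 0.342, and in 0 of 14 comparisons was every pair over 0.1.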

Additional observations from a re-analysis of the deposited data

Results flagged for a closer look

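Within groups of 4 arrays, 16 of 171 sets of values held 1 array far from the rest by Dixon's criterion, which chance meets in about 1 in 20 groups. The sets share arrays and their genes move together, so they are not independent and the 16 cannot be weighed against that rate. Groups of 3 arrays, among them the unexercised 1.0 mg/kg gastrocnemius, were not examined. In replicate 3 of the unexercised 0.1 mg/kg gastrocnemius the mean log2 level of the members was 9.887, and the signals of Adgre1 (563.6), Fcer1g (3469), Mrc1 (2454), Cd14 (2214), Ptprc (721.1), Cybb (2413), Lyz2 (13060) and Apoe (19020) were high. In single arrays of other gastrocnemius groups, Tlr4 was low at 76.7 (unexercised vehicle, replicate 1), Trem2 low at 9.9 (unexercised 0.5 mg/kg, replicate 1) and Cd163 high at 331 (exercised vehicle, replicate 1). In vehicle soleus, Tyrobp (590.2) and Fcgr2b (525.9) were high in unexercised replicate 3, and Csf1r (519.4) and Trem2 (19.9) were low in exercised replicate 2.

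The rise at 1.0 mg/kg with exercise was larger in gastrocnemius than in soleus for 18 of the 18 tested members named by role. By the same limma test of that difference, 13.7% of all probe sets were called in that direction. Among receptors, the log2 differences of the effects were 2.716 for Csf1r, 2.78 for Adgre1, 4.978 for Fcgr2b, 3.627 for Fcgr1a, 3.501 for Trem2, 4.156 for Cd68, 3.596 for Cd163, 3.492 for Mrc1, 3.865 for Cd14 and 2.345 for Tlr4. Among adaptors and signalling genes they were 4.177 for Tyrobp, 3.296 for Fcer1g, 4.217 for Ptprc and 4.187 for Lyn. Among oxidase and effector genes they were 3.697 for Cybb, 3.123 for Cyba, 2.976 for Lyz2 and 2.127 for Apoe. Muscle and RNA input cannot be told apart here.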

How the results depend on the processing

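The count of members called at 1.0 mg/kg in exercised gastrocnemius stayed at 37 when single arrays were left out and between 33 and 38 under the other settings, and no call changed direction. Without exercise, leaving out 1 array gave 0 to 36 members called against vehicle and 0 to 36 against 0.5 mg/kg. Fitting the compared arrays alone gave 0 and 0, as for all probe sets. Calls over all probe sets moved alike. Against vehicle they were 0.023% without high-dose replicate 1, 0.0092% without replicate 2 and 26.8% without replicate 3. Against 0.5 mg/kg they were 0%, 0.0046% and 27.1%. The difference of the high-dose effect between muscles without exercise ran from 0 to 31 with 1 array left out, where 16.4% of all probe sets were called at the 31. It was 34 with array weights and 14 without the arrays of an actin ratio under 0.25, a setting chosen after seeing the data, although none of those arrays was in the groups compared. With array weights, 4 members were called for the difference of the effect between exercise and none, and 7 between soleus and gastrocnemius in exercised vehicle rats. Between muscles at baseline, fitting the compared arrays alone gave 8 with exercise and 1 without, and leaving out 1 array gave 1 to 2 and 0 to 2. The cause was not tested. Shares over all probe sets under array weights, the actin setting and the baseline refits are not given here. Those member counts therefore cannot be read as particular to the members. With median centring, the split over all probe sets between the unexercised vehicle muscles moved from 709 of 1526 higher to 490 of 1364. With the replicate number as a block, 37 members were called with exercise and 28 without, and the block changed no member count by over 1.5 times. Dim members such as Trem2 and Itgam lie near the low end of the signals, which limits them.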
